A study of Rattus norvegicus with 64 samples.

Results

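A set of 10 eosinophil and basophil genes, some of them also known from other cells, was followed in blood across rats given amphetamine (AMPH) or kept in a hot or cool room. They were the eosinophil granule genes Epx and Prg2, the receptors Ccr3 and Il5ra, the lipoxygenase Alox15, the IgE receptor genes Fcer1a and Ms4a2, the protease gene Cpa3, the histamine-forming enzyme gene Hdc and the transcription factor gene Gata2. The genes were chosen by symbol, ignoring case, and each matched 1 identifier in all 64 files. They were 10 of the 26405 genes listed in any file and of the 17366 listed in all files.

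RNA was from whole blood of adult male Sprague-Dawley rats 85 to 90 days old, drawn by cardiac puncture 3 h after the final injection of a course of 4 given every 2 h, and depleted of globin RNA. The 5 groups were Saline Control at 22.5 °C (n = 6), Saline Control Cool Environment at 16 °C (n = 5), Saline Hyperthermic-EIH (environmentally induced hyperthermia) at 39 °C (n = 16), Amphetamine Hyperthermic at 22.5 °C (n = 22) and Amphetamine Noromothermic (spelled as in the labels) at 16 °C (n = 15). Between the AMPH groups, and between EIH and Saline Control, both the room temperature and the body temperature named in the label differed, and these cannot be told apart. Amphetamine Hyperthermic and EIH differed in both drug and room temperature. Saline rats numbered below 17 were not analysed here. The last control group of the paper also had 6 rats, 2 of them left out for high Mb. The paper reports that a poor PCR reagent impaired the first sequencing of that group, which was then repeated. The labels do not say whether the Saline Control rats are that group, or from which run their counts come.

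Totals ran from 19055674 to 40530378 counts per rat. Following the criterion of the study, 5 rats with over 5000 counts of the muscle gene Mb were left out of the comparisons, which left 4, 5, 15, 22 and 13 rats in the order of the groups above. Each file name opens with one of 14 codes whose meaning the labels do not give. EIH and Saline Control shared no code, nor did both saline controls, so in those comparisons file code and group cannot be told apart. Values given for them with file code in the fit are indirect, drawn through other groups that share codes with each. Amphetamine Hyperthermic shared 5 codes with Amphetamine Noromothermic, 7 with EIH and 2 with Saline Control. Amphetamine Noromothermic shared 1 code with the cool control, which held all 5 cool control rats but only 1 Noromothermic rat. File code and group can thus hardly be told apart at 16 °C. Levels are normalised counts (counts divided by a size factor per rat) and compare rats, not genes, since they are not per length.

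Eosinophils and basophils are rare granulocytes of blood. Eosinophils store cationic proteins such as eosinophil peroxidase (Epx) and major basic protein (Prg2), respond to eotaxins through Ccr3 and depend on interleukin 5, whose receptor subunit is Il5ra. Basophils carry the high-affinity IgE receptor (Fcer1a and Ms4a2 encode its alpha and beta chains), make histamine through Hdc and need Gata2. Tissue mast cells share the IgE receptor, Cpa3, Hdc and Gata2, and Alox15 is known from reticulocytes as well as eosinophils.

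All 10 genes had at least 1 count in some rats, but Epx and Il5ra were near the detection limit. At 10 counts or more, Alox15 was detected in 64 of 64 rats, Gata2 in 60, Hdc in 59, Prg2 and Cpa3 in 58 each, Ccr3 in 55, Ms4a2 in 51 and Fcer1a in 33. Epx reached 10 counts in 6 rats and Il5ra in 5, and 30 rats had no Epx count and 15 no Il5ra count. Detected in over 50% of all rats were thus 8 of the 10 genes. Fcer1a reached 10 counts in 1 of 5 Saline Control Cool Environment rats, 6 of 16 EIH rats and 10 of 22 Amphetamine Hyperthermic rats, so it was not detected by that rule in those groups. Raw counts of Epx were between 0 and 39 and those of Alox15 between 39259 and 267459. With so few reads per rat, differences in Epx and Il5ra were not measurable with precision.

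Of the 10 genes, 6 differed somewhere among the 5 groups (Epx, Prg2, Ccr3, Alox15, Hdc and Gata2; edgeR quasi-likelihood test, adjusted p between 5.32e-05 and 0.0305), where 42.1% of the 14000 genes tested did. With file code in the fit, where 25.3% of all genes passed, the 3 genes that passed were Ccr3, Hdc and Gata2 (adjusted p = 0.0012, 0.0252 and 0.00811), while Epx, Prg2 and Alox15 had adjusted p = 0.392, 0.731 and 0.642. Fcer1a, Ms4a2 and Cpa3 did not pass (adjusted p = 0.806, 0.524 and 0.773). In RNA of whole blood, fewer cells of a type and less RNA per cell cannot be told apart. The paper counted blood cells in control and neurotoxic AMPH rats and marked no significant difference in eosinophils or basophils. Those counts are given as group means and cannot be set beside single rats here.

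**Figure D1:**
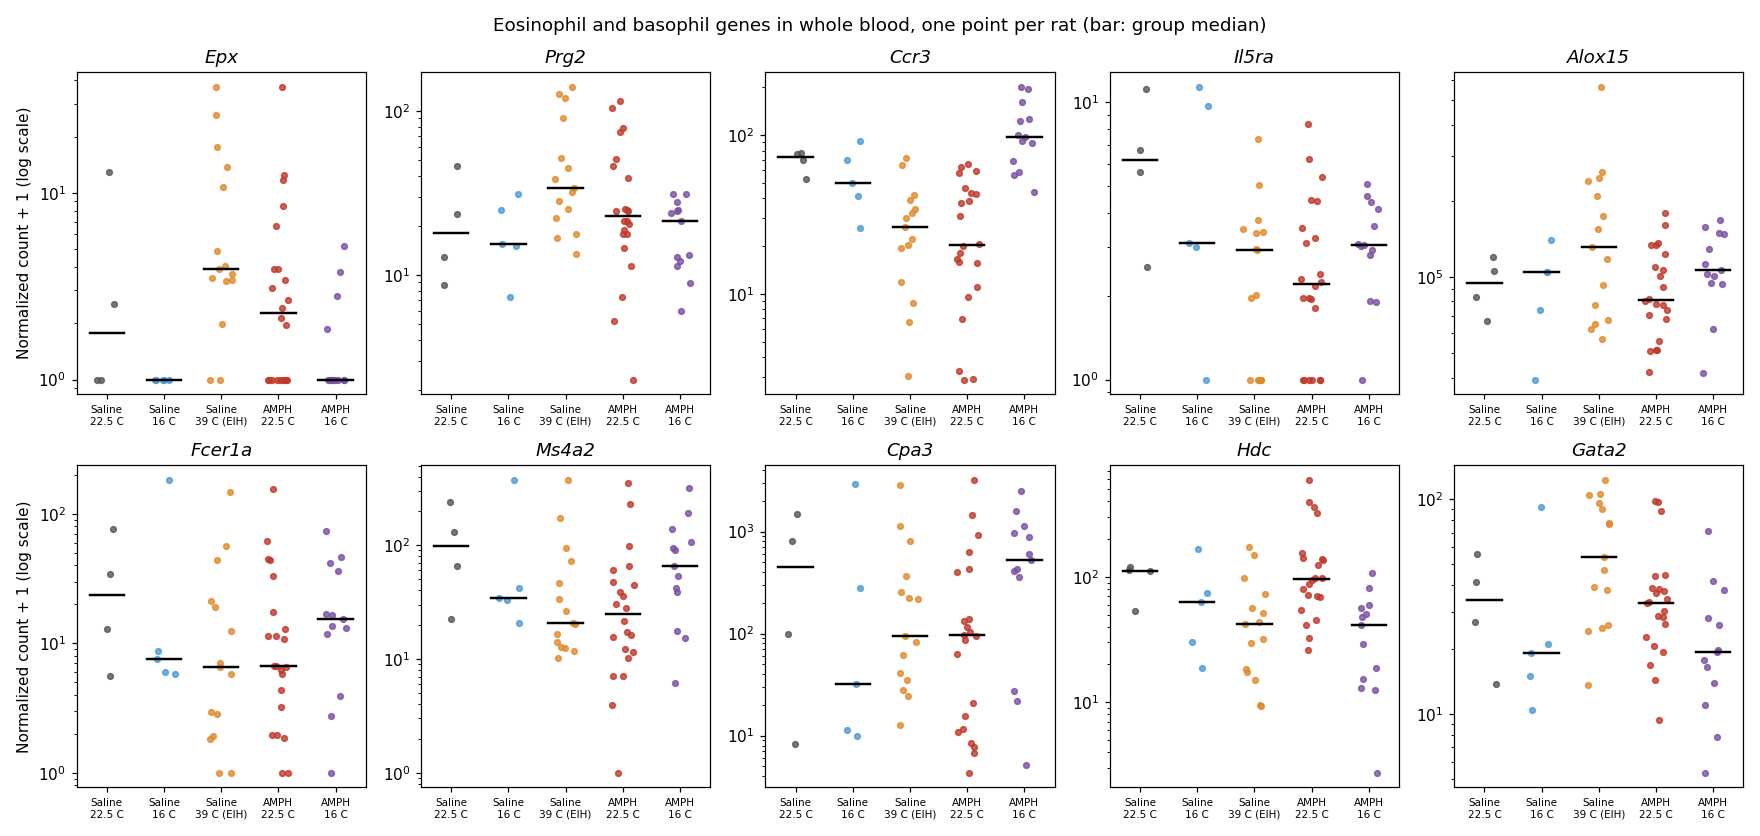
Normalised counts of the 10 genes in each rat on a log axis, one panel per gene, with 1 point per rat in the 5 groups and a line at each group median. Ccr3 sits high in Amphetamine Noromothermic, Hdc sits high in Amphetamine Hyperthermic, and Cpa3 spreads from 3.32 to 3213 within Amphetamine Hyperthermic alone.

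Ccr3, the eotaxin receptor, gave the strongest difference. Normalised counts of the 4 rats of Saline Control were 74.8, 76.0, 51.8 and 68.7, and in the Saline Control Cool Environment rats 40.1, 25.0, 91.4, 68.7 and 49.1. In Amphetamine Hyperthermic the lowest, median and highest rats were at 1.88, 19.3 and 64.5, and in Amphetamine Noromothermic at 42.6, 95.9 and 201.6. The AMPH groups overlapped in part, with 17 of 22 hyperthermic rats below all 13 Noromothermic rats and 22 of 22 below their median. Group means were 27.5 ± 20.8 (SD, n = 22) and 107.8 ± 51.4 (SD, n = 13), a log2 difference of -1.94 ± 0.35 (SE), or 3.83-fold lower in Amphetamine Hyperthermic (edgeR, adjusted p = 8.37e-05). With file code in the fit the log2 difference was -2.26 (adjusted p = 0.000632), and the hyperthermic mean was the lower in 5 of the 5 codes that held both groups.

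EIH rats, which received saline, had Ccr3 in the range of the Amphetamine Hyperthermic rats. Their lowest, median and highest values were 2.03, 25.3 and 71.2, and the log2 difference between the hyperthermic groups was 0.00 ± 0.354 (adjusted p = 0.996), an error that leaves room for a difference of that size either way. It was, with file code in the fit, -0.70 ± 0.44 (adjusted p = 0.393), 1.62-fold lower in Amphetamine Hyperthermic. Against Saline Control, 18 of 22 Amphetamine Hyperthermic rats and 13 of 15 EIH rats were below all 4 controls. Both log2 differences from Saline Control were -1.31 (SE 0.503 and 0.535) and missed the threshold (adjusted p = 0.0692 and 0.0596). They share the 4 control rats. With the rats of high Mb kept, both passed (-1.16, adjusted p = 0.0417, and -1.14, adjusted p = 0.0495). Neither passed with file code in the fit, at -1.26 for Amphetamine Hyperthermic (adjusted p = 0.229) and -0.57 for EIH (adjusted p = 0.698). The value for EIH is indirect, since EIH and Saline Control shared no code.

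Ccr3 followed the summed level of the 5 T cell markers across rats with r = 0.411 and rho = 0.342 (permutation p = 0.00481 and 0.015, adjusted over 80 pairs of gene and marker list p = 0.035 and 0.109), but with 0.261 after subtracting file code means (permutation p = 0.0587, adjusted p = 0.181), where the relation did not pass. Without the 2 rats farthest from the Ccr3 median r was 0.36. The summed T cell level had medians of 5683 in Saline Control, 1658 in EIH, 3059 in Amphetamine Hyperthermic and 3391 in Amphetamine Noromothermic. Between the AMPH groups, where 10.3% of all genes passed, 0 of 5 T cell markers did. The part of T cells in the Ccr3 values was not tested.

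At 16 °C the AMPH rats had Ccr3 0.95 ± 0.564 log2 units above their saline control, which did not pass (adjusted p = 0.758). The difference between the AMPH effects at 22.5 °C and at 16 °C was -2.26 ± 0.771 (unadjusted p = 0.00485, adjusted p = 0.221 in edgeR). Of all genes, 0.143% passed that test of the difference, and none of the 10 did. Both values rest on the comparison at 16 °C, in which file code and group can hardly be told apart.

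Il5ra, the interleukin 5 receptor subunit, was low in every group. Its values in Saline Control were 10.2, 4.62, 1.55 and 5.73, and in the cool control 2.11, 2.0, 0, 10.4 and 8.66. The highest rat was at 6.36 in EIH, 7.36 in Amphetamine Hyperthermic and 4.08 in Amphetamine Noromothermic. Of the 22 Amphetamine Hyperthermic rats 14, and of the 15 EIH rats 7, were below all 4 Saline Control rats, and the AMPH groups overlapped. The log2 differences from Saline Control, -1.59 ± 0.625 for Amphetamine Hyperthermic and -1.64 ± 0.683 for EIH, missed the threshold (edgeR, adjusted p = 0.0741 and 0.0644) and passed with the rats of high Mb kept (-1.95 in both, adjusted p = 0.00699 and 0.00889). They did not pass with file code in the fit (adjusted p = 0.199 and 0.246), and without Saline Control rat 17 they were -1.11 and -1.15 (adjusted p = 0.386 and 0.321).

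**Figure D2:**
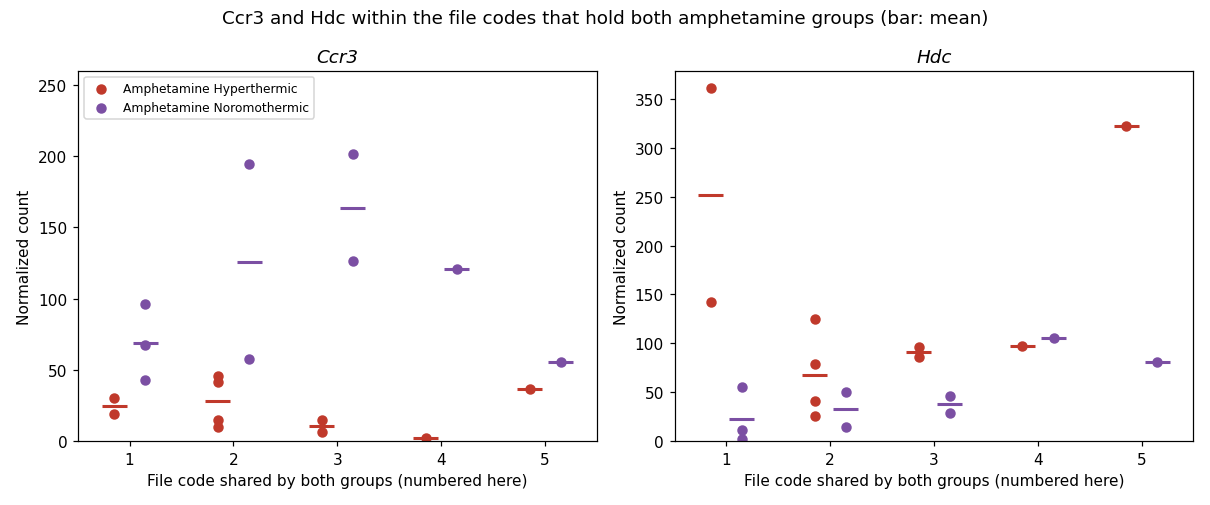
Normalised counts of Ccr3 and Hdc in the AMPH rats of the 5 file codes that held both AMPH groups, with 1 point per rat, codes along the horizontal axis and a linear vertical axis. The hyperthermic mean was below the Noromothermic mean in 5 of 5 codes for Ccr3 and above it in 4 of 5 for Hdc.

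Hdc, which makes histamine, moved the other way between the AMPH groups. Its values were 111.9, 52.4, 109.9 and 118.6 in Saline Control and 166.8, 74.0, 17.8, 29.2 and 62.5 in the cool control. The lowest, median and highest rats were at 25.1, 94.7 and 595.2 in Amphetamine Hyperthermic, 1.73, 40.0 and 105.8 in Amphetamine Noromothermic and 8.4, 40.8 and 171.8 in EIH. Of the 22 hyperthermic AMPH rats, 20 were above the Noromothermic median and 9 above every Noromothermic rat. Hdc was 3.65-fold higher in Amphetamine Hyperthermic than in Amphetamine Noromothermic (log2 1.87 ± 0.445, edgeR, adjusted p = 0.0026, with file code 1.75, adjusted p = 0.0256). It was 2.75-fold higher than in EIH (log2 1.46 ± 0.414, adjusted p = 0.0196), with 19 of 22 rats above the EIH median, a call that was lost with file code in the fit although the value stayed at 1.48 (adjusted p = 0.0713). The log2 difference of Amphetamine Hyperthermic from Saline Control was 0.56 ± 0.659 (adjusted p = 0.573). The summed level of the neutrophil marker list, a cell type also known to make histamine, had a median of 335010 in Amphetamine Hyperthermic, 401643 in Amphetamine Noromothermic and 187821 in EIH, and the correlation of Hdc with it across rats was -0.0715. Its part in the Hdc difference was not tested.

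Ccr3 and Hdc were thus the 2 of 10 genes that passed between Amphetamine Hyperthermic and Amphetamine Noromothermic, where 10.3% of all genes did. Hdc and Alox15 were the 2 of 10 that passed between Amphetamine Hyperthermic and EIH, where 5.48% of all genes did, and with file code in the fit neither passed. None passed in Amphetamine Hyperthermic against Saline Control (12.0% of all genes) or in EIH against Saline Control (23.8%), with Ccr3 and Il5ra at unadjusted p under 0.05 in both and no call by DESeq2 in either. None passed for Amphetamine Noromothermic against Saline Control Cool Environment or between the saline controls, where 0.0% of all genes passed in each. In edgeR 1026 and 1463 genes had an unadjusted p under 0.05 there, among them none and 1 (Epx) of the 10, and DESeq2 called 63 and 115 genes, none of the 10. Between the saline controls DESeq2 gave an adjusted p to only 2600 genes, and a gene outside these could not be called. The comparisons with Saline Control share its 4 rats, and those with Amphetamine Hyperthermic share its 22. The share of all genes that passed against Saline Control depended on single controls, since leaving out one of the 4 gave between 150 and 2113 genes for Amphetamine Hyperthermic and between 1480 and 3080 for EIH, while the count among the 10 stayed at 0.

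**Figure D3:**
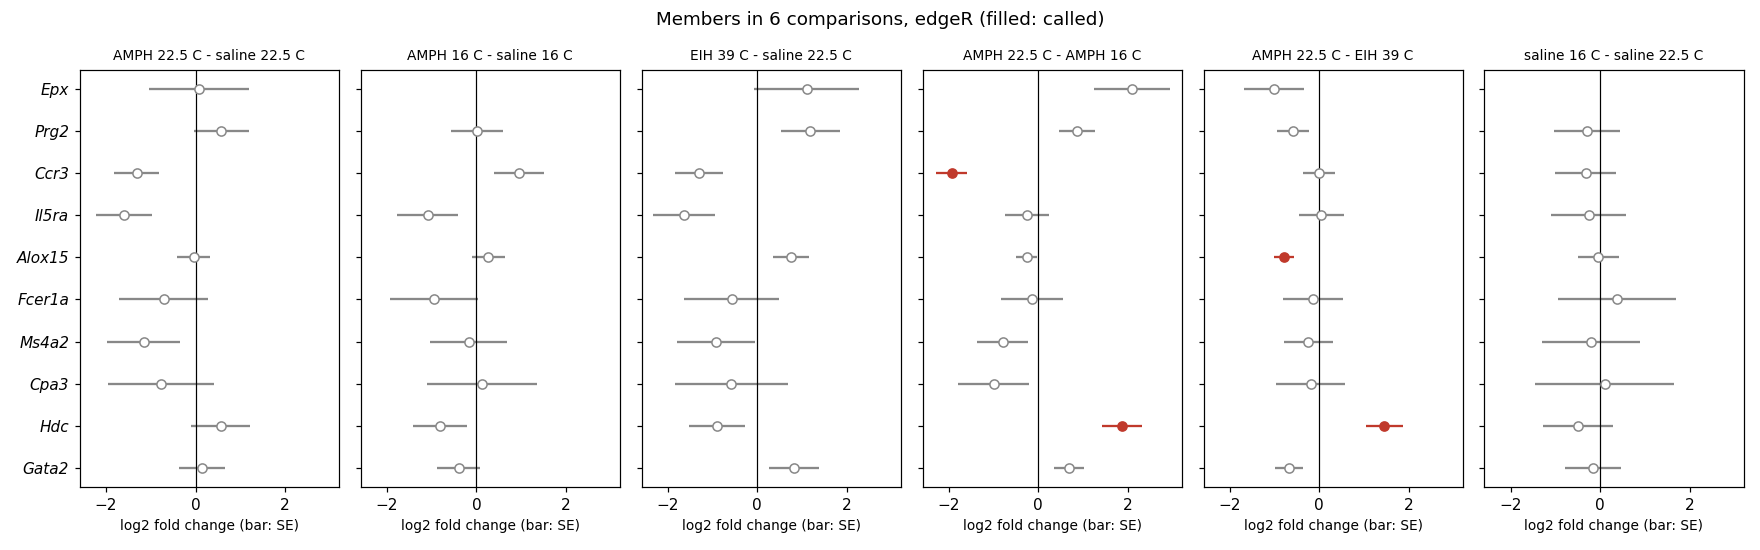
Log2 fold change of each gene in each comparison with its SE, from the edgeR fit over 5 groups. Filled points mark the calls, which are Ccr3 and Hdc between the AMPH groups and Hdc and Alox15 between Amphetamine Hyperthermic and EIH, and Epx is not drawn in comparisons with the cool control, where all 5 rats were at 0 counts.

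The median log2 difference of the 10 genes, given beside that of all genes tested, was -0.37 against -0.00 for Amphetamine Hyperthermic versus Saline Control and -0.58 against 0.02 for EIH versus Saline Control. It was -0.20 against 0.05 between the AMPH groups and -0.22 against -0.02 for Amphetamine Hyperthermic versus EIH. For the 9 genes other than Epx it was -0.17 against 0.02 for Amphetamine Noromothermic versus its cool control and -0.20 against -0.10 between the saline controls.

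Epx, the eosinophil peroxidase gene, was listed at 0 counts in all 5 cool control rats, and a count of 0 there allows up to 0.115 to 0.131 CPM (counts scaled to a fixed library total). In Saline Control its values were 0, 0, 1.55 and 12.0. The lowest, median and highest rats were at 0, 2.92 and 36.1 in EIH, 0, 1.28 and 35.7 in Amphetamine Hyperthermic and 0, 0 and 4.16 in Amphetamine Noromothermic. High values thus came from a few rats of the 22.5 and 39 °C groups, with every group reaching down to 0. The log2 difference between the AMPH groups was 2.09 ± 0.854 (edgeR, adjusted p = 0.0856), and it was 0.53 with file code in the fit (adjusted p = 0.809). With the rats of high Mb kept it passed (2.21, adjusted p = 0.0456).

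Prg2, which encodes major basic protein, had its highest mean in EIH. Values were 11.8, 7.7, 22.4 and 45.2 in Saline Control and 6.33, 30.0, 14.5, 14.1 and 24.0 in the cool control. The lowest, median and highest rats were at 12.4, 32.7 and 140.0 in EIH, 1.3, 21.9 and 113.8 in Amphetamine Hyperthermic and 5.04, 20.3 and 30.2 in Amphetamine Noromothermic. The groups overlapped. Neither EIH against Saline Control (log2 1.18 ± 0.66, adjusted p = 0.174) nor the AMPH groups (0.86 ± 0.398, adjusted p = 0.136) differed past the threshold.

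Epx and Prg2 varied together from rat to rat. After subtracting group means, the correlation across the 59 rats was r = 0.659 and rho = 0.65 (permutation within groups, p = 1e-05, the smallest that 100000 permutations can give, adjusted over 45 pairs of the 10 genes p = 9e-05 and 0.000112). It was 0.593 without the 2 rats farthest from the Epx median and 0.574 after subtracting file code means. Prg3, the related granule protein gene, was the gene most like Epx among all 14000 tested (r = 0.73). That r was 0.624 without the 2 rats farthest from the Epx median and 0.542 after subtracting file code means. Both genes were low, with the highest rat at 36.1 for Epx and 47.5 for Prg3.

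Alox15, the 15-lipoxygenase gene, was abundant in every rat. Values were 105819, 120253, 83177 and 66906 in Saline Control and 139518, 39268, 73898, 104349 and 104341 in the cool control. The lowest, median and highest rats were at 56974, 131445 and 567289 in EIH, 41925, 80911 and 179268 in Amphetamine Hyperthermic and 41570, 106552 and 168379 in Amphetamine Noromothermic. Of 22 Amphetamine Hyperthermic rats, 17 were below the EIH median, and 5 were below every EIH rat. Alox15 was 1.73-fold lower in Amphetamine Hyperthermic than in EIH (log2 -0.79 ± 0.225, edgeR, adjusted p = 0.02). With file code in the fit the log2 difference was -0.49 (adjusted p = 0.404), the mean was the lower in 4 of 7 shared codes, and with only those 2 groups fitted it was -0.82 (adjusted p = 0.0515).

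Reticulocyte markers moved with Alox15. The summed level of the 4 markers (Alas2, Slc4a1, Hba-a2 and Epb42) had a median of 2514771 in EIH, with a range of 441184 to 12881892, and of 1158444 in Amphetamine Hyperthermic, with a range of 440172 to 8167157. Of these genes, 1 of 4 fell in Amphetamine Hyperthermic against EIH (Epb42, log2 -0.69) and none rose, where 5.48% of all genes passed. Across rats, with group means subtracted, Alox15 followed the summed reticulocyte level with r = 0.507 and rho = 0.53 (permutation p = 0.00048 and 0.00013, adjusted over 80 pairs of gene and marker list p = 0.0048 and 0.00208). The r was 0.472 without the 2 rats farthest from the Alox15 median and 0.655 after subtracting file code means. The genes most like Alox15 were Tpm1 (r = 0.826), Creg1 (0.815) and Mrpl37 (0.809). The summed level adds the counts of the 4 genes, and Hba-a2 is an alpha globin gene, whose RNA was depleted before sequencing. The paper reports that Hba was still the transcript of highest expression. Differences between rats in globin depletion can thus enter the summed level, and their part was not tested. The part of reticulocytes in the Alox15 difference was not tested either.

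Fcer1a, Ms4a2 and Cpa3 passed in no comparison, varied widely between rats of one group, and did so together. Upstream sequence of these genes is shown because the 3 moved together and because basophils and mast cells depend on GATA factors, Gata2 among them, which bind GATA sites. The 250 bases before the gene start were held for Fcer1a and Cpa3 (RefSeq, build GRCr8, which is not the build of the counts), at chr13:88224680-88224929 on the minus strand and chr2:104673238-104673487 on the minus strand. Capitals mark GATAA or its reverse complement TTATC.

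Fcer1a: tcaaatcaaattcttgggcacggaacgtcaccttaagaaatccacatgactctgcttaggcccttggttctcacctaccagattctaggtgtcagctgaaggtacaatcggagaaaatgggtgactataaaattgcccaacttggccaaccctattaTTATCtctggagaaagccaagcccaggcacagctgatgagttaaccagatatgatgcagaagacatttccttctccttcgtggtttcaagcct
Cpa3: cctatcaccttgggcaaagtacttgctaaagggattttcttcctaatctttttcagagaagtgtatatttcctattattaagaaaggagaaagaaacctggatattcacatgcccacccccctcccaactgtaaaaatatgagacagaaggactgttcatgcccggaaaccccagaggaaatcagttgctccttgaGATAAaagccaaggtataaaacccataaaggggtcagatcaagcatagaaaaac

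The motif starts at position -93 in Fcer1a and at -54 in Cpa3, counted from the gene start. It was in 3 of the 7 windows held for the 10 genes (Ccr3 was the other) and in 23.5% of 33469 rat windows of that length. A match of 5 letters is a description of the window and not a known site.

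Cpa3, a carboxypeptidase of mast cell granules that basophils also express, was at 98.5, 7.19, 1500 and 800.1 in Saline Control and at 2940, 9.0, 279.8, 10.4 and 30.8 in the cool control. The lowest, median and highest rats were at 11.6, 92.9 and 2883 in EIH, 3.32, 94.9 and 3213 in Amphetamine Hyperthermic and 4.11, 521.0 and 2471 in Amphetamine Noromothermic. Each of the 5 groups thus held rats with very little Cpa3 beside rats among the highest. The largest log2 difference between AMPH groups among the 3 genes was that of Cpa3, -1.0 ± 0.795 (edgeR, adjusted p = 0.443). That of Ms4a2 was -0.79 ± 0.57 (adjusted p = 0.388).

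Ms4a2 was at 64.6, 21.6, 237.5 and 130.0 in the same order of Saline Control rats, and Fcer1a at 11.8, 4.62, 75.8 and 33.2, so the Saline Control rat highest in Cpa3 was also the highest in both, and the lowest rat was the lowest in both. In the cool control 1 rat stood apart, with Cpa3 at 2940, Ms4a2 at 373.7 and Fcer1a at 182.6, where the other 4 rats were between 9.0 and 279.8, 19.8 and 41.3, and 4.81 and 7.8. Fcer1a and Ms4a2 correlated across the 59 rats with r = 0.892 and rho = 0.878, Fcer1a and Cpa3 with 0.848 and 0.826, and Ms4a2 and Cpa3 with 0.83 and 0.834, each with a permutation p = 1e-05 (adjusted p = 9e-05 for r and 0.000112 for rho). Leaving out the 2 rats farthest from the median of the first gene gave r = 0.867, 0.824 and 0.803, and subtracting file code means gave 0.898, 0.886 and 0.876.

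**Figure D4:**
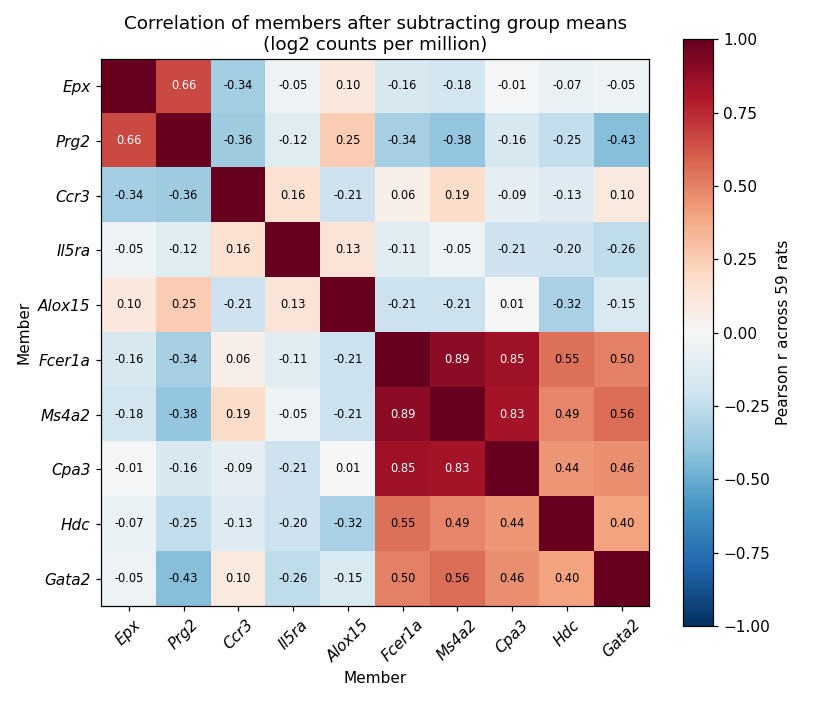
Pearson correlation of each pair of the 10 genes across 59 rats, on log2 CPM with group means subtracted, with colour and printed value giving r. Fcer1a, Ms4a2 and Cpa3 form one block at 0.83 or more, joined less strongly by Hdc and Gata2, and Epx pairs with Prg2 at 0.66.

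Tissue mast cell markers moved with the same genes. The genes most like Cpa3 were Tpsb2 (r = 0.96), a mast cell tryptase, and Cma1 (0.942), a mast cell chymase. Reads of Tpsb2 may be shared in part with the related tryptase gene Tpsab1, which was not checked, so its level is uncertain. Cpa3 correlated with Kit, the stem cell factor receptor that mast cells keep, with r = 0.681 and rho = 0.688 (permutation p = 1e-05, adjusted over 6 pairs p = 1.2e-05). Tpsb2 was at 0 in the lowest rat of each group and reached 233.6 in Saline Control, 649.2 in the cool control, 642.3 in EIH, 699.1 in Amphetamine Hyperthermic and 516.1 in Amphetamine Noromothermic. None of the 9 mast cell markers was at 0 in all rats. Their summed level had medians of 1112, 222.2, 466.1, 372.8 and 1156 in the order of the groups in the opening, and ranged from 84.4 to 6285 over all 59 rats. Neither Kit nor Tpsb2 passed in any comparison.

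**Figure D5:**
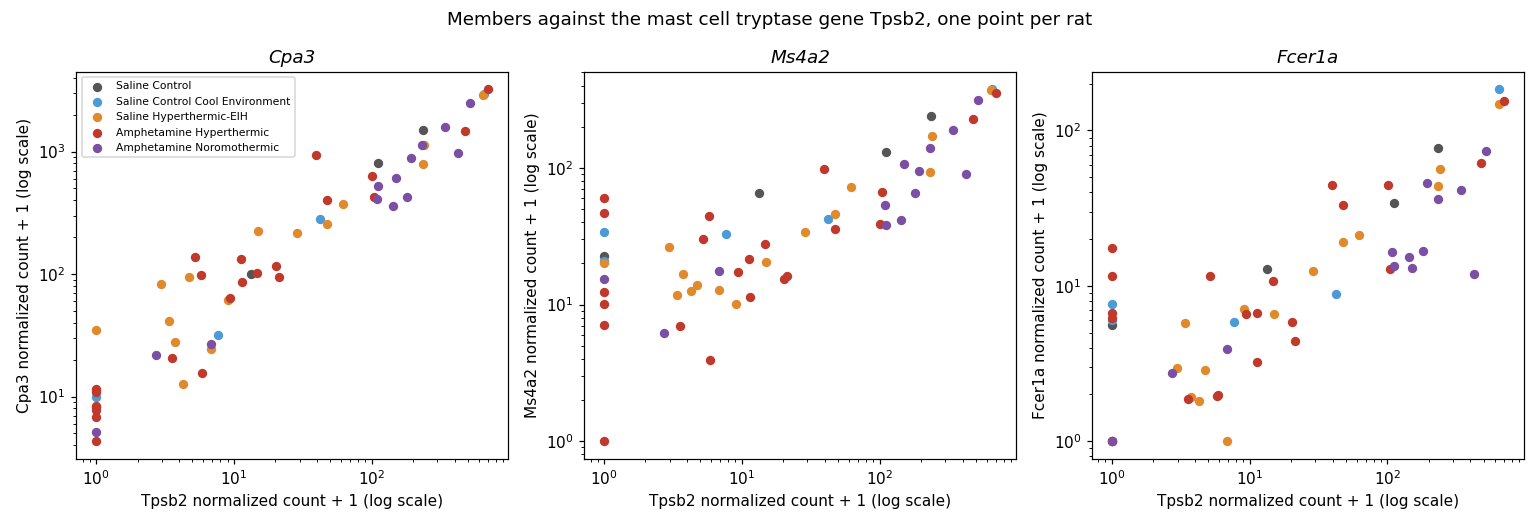
Normalised counts of Cpa3, Ms4a2 and Fcer1a against those of the tryptase gene Tpsb2 in each of the 59 rats, on log axes with 1 added and with colours for the groups. Points of all 5 groups lie along one band in each panel, tightest for Cpa3 (r = 0.96 after subtracting group means).

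Gata2, a transcription factor of basophils, mast cells and blood progenitors, had its highest mean in EIH. Values were 25.8, 12.8, 54.9 and 40.1 in Saline Control and 90.8, 14.0, 20.1, 9.41 and 18.3 in the cool control. The lowest, median and highest rats were at 12.7, 52.6 and 122.4 in EIH, 8.41, 32.0 and 96.9 in Amphetamine Hyperthermic and 4.32, 18.5 and 70.6 in Amphetamine Noromothermic. The groups overlapped, but 19 of 22 Amphetamine Hyperthermic rats were below the EIH median and their mean was the lower in 7 of 7 shared codes. That difference was -0.68 ± 0.31 (edgeR, adjusted p = 0.15), and that between the AMPH groups 0.69 ± 0.338 (adjusted p = 0.167). Gata2 followed the summed mast cell marker level with r = 0.588 and rho = 0.527 (permutation p = 2e-05 and 3e-05, adjusted over 80 pairs p = 0.0004 and 0.0006), and Hdc did so with r = 0.477 and rho = 0.406 (p = 0.00022 and 0.00186, adjusted p = 0.00293 and 0.0186). An alternative chosen after seeing the data put the summed level of 4 mast cell markers in the fit. Hdc and Ccr3 still passed there between the AMPH groups and Gata2 passed as well, where 9.29% of all genes passed.

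Other genes of these cells are given with the share of all genes that passed in the same comparison, which was 12.0% for Amphetamine Hyperthermic and 23.8% for EIH against Saline Control, 10.3% between the AMPH groups and 5.48% for Amphetamine Hyperthermic against EIH. Of 7 other eosinophil genes tested, Emr1 fell in Amphetamine Hyperthermic against Saline Control (log2 -1.33, edgeR, adjusted p = 0.0105), Ltc4s, the leukotriene C4 synthase gene, rose in EIH against Saline Control (1.29, adjusted p = 0.0393), and Cebpe, a factor of granulocyte maturation, was higher in Amphetamine Hyperthermic than in Amphetamine Noromothermic (0.69, adjusted p = 0.0457). Of 10 other basophil genes, Cebpa rose in EIH against Saline Control (1.85, adjusted p = 0.00546), while Enpp3, a basophil surface enzyme, was higher (1.04, adjusted p = 0.0382) and GATA1 lower (-0.79, adjusted p = 0.0151) in Amphetamine Hyperthermic than in EIH. With file code in the fit Emr1 (-1.59, adjusted p = 0.0256) and Enpp3 (1.54, adjusted p = 0.0292) passed again and Ltc4s, Cebpe, Cebpa and GATA1 did not. In the order of the comparisons above, the median log2 difference of the eosinophil list was 0.29, 0.12, -0.11 and -0.38. That of the basophil list was -0.03, -0.06, -0.03 and -0.21. Emr1, Cebpe, Cebpa and Enpp3 thus moved against the median of their list, and Ltc4s and GATA1 in its direction.

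Receptor partners and lipid mediator genes formed the third list, with 8 genes tested. In Amphetamine Hyperthermic against Saline Control (12.0% of all genes) 3 rose and none fell, namely Csf2rb (log2 1.78, adjusted p = 0.0156), the beta chain that pairs with Il5ra, Csf2ra (1.13, adjusted p = 0.0274) and Lyn (1.04, adjusted p = 0.00273), a kinase downstream of the IgE receptor. In EIH against Saline Control (23.8% of all genes) 4 rose, namely Csf2rb, Csf2ra, Lyn and Syk, another kinase of that pathway, and Alox5ap, which activates leukotriene synthesis, was the 1 gene of 8 that passed between Amphetamine Hyperthermic and EIH (5.48% of all genes), where it was higher in the former (0.80, adjusted p = 0.023). With file code in the fit Csf2rb passed again in both comparisons with Saline Control (1.85, adjusted p = 0.0251, and 2.05, adjusted p = 0.0293) and Lyn in that of Amphetamine Hyperthermic (0.99, adjusted p = 0.015), and the others did not. The file code value for EIH is indirect, since EIH and Saline Control shared no code. Csf2rb, Csf2ra and Lyn are also used by neutrophils and monocytes, whose summed marker medians were 123063 and 6290 in Saline Control and 335010 and 13662 in Amphetamine Hyperthermic. Their part in these differences was not tested.

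Markers of other cells passed as follows. Against Saline Control, where 12.0% of all genes passed in Amphetamine Hyperthermic and 23.8% in EIH, 3 and 5 of 5 T cell markers fell. In the same order 2 and 3 of 5 monocyte markers, 2 and 4 of 4 platelet markers, 1 and 1 of 8 neutrophil markers and 0 and 1 of 4 reticulocyte markers rose. Between Amphetamine Hyperthermic and EIH (5.48% of all genes), 3 of 8 neutrophil markers and 1 of 5 T cell markers were higher and 1 of 4 reticulocyte markers lower in Amphetamine Hyperthermic. Between the AMPH groups (10.3% of all genes), 1 of 7 mast cell markers (Mitf), 1 of 3 B cell markers and 1 of 4 platelet markers were higher and 1 of 4 reticulocyte markers lower in Amphetamine Hyperthermic. None of the 4 cardiac muscle markers passed in any comparison, and none of the markers passed between the saline controls or for AMPH at 16 °C.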

How the data were processed

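Whole-blood RNA of 64 rats was sequenced as stranded mRNA libraries. The deposited values were RSEM expected counts per gene, which the authors made with CASAVA 1.8.2, Bowtie 0.12.9 and RSEM 1.2.0 on the rn5 genome (per the submitters' processing notes and the study's methods) and did not normalise. The 6 gene lists in the files held 18503 to 26405 genes. Here expected counts were rounded. Genes in all files with at least 10 counts in at least 4 rats were fitted over the 5 groups with the edgeR quasi-likelihood test and TMM scaling, leaving out rats with over 5000 Mb counts. A call was an adjusted p (Benjamini-Hochberg, all 14000 genes) under 0.05 with a log2 difference over 0.58 either way; the test among all 5 groups and the test of the difference of AMPH effects used the p alone. Printed levels are rounded counts divided by DESeq2 size factors over 64 rats. Correlations used log2 CPM (prior count 2) with group means subtracted, and rats were permuted within groups 100000 times; those with marker lists and single genes were added after seeing the data. The biological coefficient of variation, the spread between rats beyond counting error, was 0.488. On simulated data for the AMPH groups, edgeR called 71% of genes changed by log2 1 and 100% of those changed by log2 2. Only genes with a mean of at least 10 counts were changed there, which leaves out Epx and Il5ra. Counts were drawn with the spread typical of genes at their level and without file code. The rates thus do not cover genes of wider spread between rats.

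All 10 genes are named, with the 3 genes most like each and the genes of the lists. The genes and lists were chosen with earlier results of these data known. Labels number the rats of each group, and p-values measure the spread between them; no pair of rats in a group agreed within sampling noise (lowest chi-square per gene 56.2). Same-numbered rats did not all deviate together by the rule that every pair exceed r = 0.1 (lowest r between -0.268 and 0.0207, mean r between -0.0397 and 0.194), so the numbers were not used as pairs. Alternatives were DESeq2, its size factors, no filter, all 64 rats, file code as a covariate or only codes shared by the groups, only the groups compared, the replicate number as a block, single controls left out, and the level of mast cell markers, the last added after seeing the data. Python 3.11.15, pandas 2.3.3, scipy 1.17.1 and R 4.3.3 with edgeR 4.0.16 and DESeq2 1.42.0 were used.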

Additional observations from a re-analysis of the deposited data

Results flagged for a closer look

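In the groups of 4 and 5 rats, 6 of 19 sets of values had a rat far from the others, where chance gives about 1 in 20. Of these, 4 were the same Saline Control Cool Environment rat (number 1), with Fcer1a at 182.6 (the others 4.81 to 7.8), Ms4a2 at 373.7 (19.8 to 41.3), Cpa3 at 2940 (9.0 to 279.8) and Gata2 at 90.8 (9.41 to 20.1), so these are not independent of one another. Its Tpsb2 level, 649.2, was also the highest of its group. In Saline Control, rat 21 had Epx at 12.0, where the others were at 0 to 1.55, and rat 18 had Hdc at 52.4, where the others were at 109.9 to 118.6. Leaving out any one of these rats left the count of the 10 genes called at 0 in each comparison with its group.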

How the results depend on the processing

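Ccr3 and Hdc passed between the AMPH groups under every alternative run. The count of the 10 genes called there was 2, and 3 with all 64 rats (Epx added), where 12.9% of all genes passed. Over the rats whose number occurs in both groups, with 8 of the 10 genes tested, it was 4 (Ccr3, Hdc, Ms4a2 and Prg2), where 13.7% of all genes passed, and 3 with the replicate block (11.9%). Over all genes the count there was 1448, and between 987 and 1804 under the alternatives. Against EIH the count of 2 went to 0 with file code, 0 with shared file codes, 0 with the replicate block, 0 on the same rats without it and 1 with only those groups fitted, so the calls of Hdc and Alox15 there depend on the fit. Keeping all 64 rats raised the count from 0 to 2 in Amphetamine Hyperthermic against Saline Control, where 22.7% of all genes passed. It raised the count from 0 to 3 in EIH against Saline Control, where 31.5% of all genes passed. The mast cell marker covariate also raised the latter to 3 (Cpa3, Gata2 and Il5ra), where 22.5% of all genes passed. With file code, 3 of the 6 genes that differed among the 5 groups passed, where 25.3% of all genes did. The mast cell marker covariate also turned the Cpa3 difference between the AMPH groups from -1.0 to 0.22. The cause was not tested in these cases. Without each Saline Control or cool control rat in turn the counts of calls stayed at 0 to 0. The replicate block changed no other call; for EIH and the cool control against Saline Control no numbers are shared, so no paired fit was possible. Pairs of the 10 genes that correlated went from 15 to 12 with file code means subtracted, and genes detected from 8 to 10 at 1 count. Over all genes, counts were 1674 (349 with file code, 780 with 2 groups, 0 with shared codes, 3173 with all rats) for Amphetamine Hyperthermic and 3327 (400 with file code, 2038 with 2 groups) for EIH against Saline Control, 767 (223, 396 and 16 with file code, 2 groups and shared codes) for Amphetamine Hyperthermic against EIH, 20 (297 with all rats, 0 with file code) for the difference of AMPH effects and 5896 (3541 with file code) among the 5 groups. Between the saline controls the count was 0, and 366 without Saline Control rat 19. Depth limits Epx and Il5ra, at 10 counts or more in 6 and 5 of 64 rats.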

Other observations

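The genes most like the other receptor and basophil genes were not eosinophil or basophil genes in every case. For Ccr3 they were Arhgap15 (r = 0.698), Klra1 (0.696) and Trat1 (0.693), of which Trat1 encodes an adaptor of the T cell receptor complex. For Fcer1a they were Ms4a2 (0.892), Ntsr1, a neurotensin receptor gene (0.859), and Tpsb2 (0.856), and Ntsr1 was also among the 3 most like Hdc (0.608) and Gata2 (0.62). For Ms4a2 they included Il1rl1, the interleukin 33 receptor gene (0.886). For Cpa3 they included Ccl24, which encodes an eotaxin that binds Ccr3 (0.925). For Prg2 they included Defa (0.673), which was also among those most like Epx (0.641). All are Pearson r across 59 rats with group means subtracted, ranked over 14000 genes, and are given as a description.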
